A study of Mus musculus with 24 samples.

Results

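CD11b+CD69+ natural killer (NK) cells were 1 of 4 NK populations sorted from mouse tumours, and 6 of the 24 libraries of the study hold them. The libraries were assigned by their titles, and each CD11b+CD69+ value was set against the mean of the other 3 population means, so that each neighbour had the same weight. All mice were female wild-type B6 animals with B16F10 tumours, a mouse melanoma line placed under the skin of the flank, and the cells were taken on day 14. No treatment or altered allele is named for any group, and the age of the mice is not given in the labels. The other populations were CD11b+CD69-, CD27+CD69- and CD27+CD69+, with 6 libraries each. Each library was made from 100 sorted cells. The cell type field of the labels reads melanoma and the design text speaks of NK cells; the NK genes described next were present in every library. The titles give the same replicate numbers, each after the letter M, in all 4 populations, and what M marks is not stated. Whether each replicate is a separate animal is not stated either, so the p-values rest on the spread between libraries, which may be technical in part. The study's title places the data in a question on IL-2 and IL-15 signalling and the production of FLT3LG by NK cells.

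NK cells are innate lymphocytes that kill stressed or transformed cells with perforin and granzymes and secrete cytokines and chemokines. As mouse NK cells mature they lose CD27, a co-stimulatory receptor of the TNF receptor family, and gain CD11b, an integrin chain encoded by Itgam. CD69 is a lectin that appears soon after activation and also marks lymphocytes that stay in tissue, where it pairs with the egress receptor encoded by S1pr1 and takes it off the cell surface. CD11b+CD69+ cells thus carry a marker of maturity together with a marker of activation or residence.

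The sort markers were read as transcripts first. All values are CPM, counts scaled to library size by the trimmed mean of M-values (TMM), and they compare a gene between libraries, not 1 gene with another. Itgam ran from 32.7 to 66.3 CPM in CD11b+CD69+ cells (median 48.8), from 59.8 to 133 in CD11b+CD69- (median 83.3), from 2.46 to 19.8 in CD27+CD69- (median 14.5) and from 0 to 13.7 in CD27+CD69+ cells (median 3.03). Every CD11b+CD69+ library was thus above every CD27+ library, and the level lay between those of the CD11b+CD69- and the CD27+ cells. The table has another identifier named Itgam, and a predicted gene shares exons with the one used here, so reads in shared exons cannot be assigned with certainty. Cd69 ran from 1051 to 1207 CPM in CD11b+CD69+ (median 1086), 304 to 901 in CD11b+CD69- (median 589), 380.2 to 917 in CD27+CD69- (median 759) and 1061 to 1417 in CD27+CD69+ cells (median 1128). No CD69+ library of either kind was below a CD69- library. The median of Cd27 was 138 CPM in CD11b+CD69+ cells, lower in CD11b+CD69- cells at 85.4, and higher in the CD27+CD69- and CD27+CD69+ cells at 289 and 341 CPM. The transcripts of all 3 sort markers followed the labels. The NK receptor genes Ncr1, which encodes NKp46, and Klrb1c, which encodes NK1.1, ran from 1917 to 2298 and from 1406 to 1736 CPM in CD11b+CD69+ cells, below the medians of 2591 and 1884 in CD11b+CD69- and above those of both CD27+ populations.

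Total counts per library lay between 1213914 and 2671533, with a median of 2213433, and 3 counts in 1 library corresponded to 1.12 to 2.47 CPM. Pairs of replicate CD11b+CD69+ libraries differed by more than counting error, which gives a chi-square ratio of about 1, their ratios being 13.1 to 15.8. Transcripts of other cells differed between the sorts. Fibroblast markers, 10 genes that include Col1a1, Col3a1 and Sparc, summed to 0 CPM in all 6 CD11b+CD69+ libraries, to at most 8.02 in CD11b+CD69-, to between 0 and 304 in CD27+CD69+ and to between 552 and 12891 CPM in CD27+CD69- libraries. Melanoma markers, 9 genes, summed to between 0 and 28.2 CPM in CD11b+CD69+, against 17.5 to 10367 in CD27+CD69-. Macrophage markers, 14 genes, summed to between 25.0 and 50.4 CPM in CD11b+CD69+ libraries and reached 307 in CD27+CD69-. T cell markers, 13 genes, summed to 1424 to 1926 CPM in CD11b+CD69+ and 959 to 1447 CPM in CD11b+CD69- libraries. In CD27+CD69- and CD27+CD69+ libraries they summed to 1361 to 3165 and 2580 to 4033 CPM. Of these markers Cd8a and Cd6 were at 0 counts in all CD11b+CD69+ libraries, while Trac and Trbc2 held 672 and 2121 counts there. The median log2 difference of the list was 0.33 against CD11b+CD69-, -2.94 against CD27+CD69- and -3.80 against CD27+CD69+ cells. In such libraries, fewer cells of a type and less RNA per cell cannot be told apart. The part of these other cells in the differences described here was not tested directly. Some comparisons are also given without the CD27+CD69- libraries, or with fibroblast and macrophage markers as covariates. T cell, melanoma, endothelial, B cell and dendritic cell markers were not used as covariates. The fibroblast sum was high almost only in CD27+CD69- libraries, so that fit cannot separate these markers from that population.

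**Figure D1:**
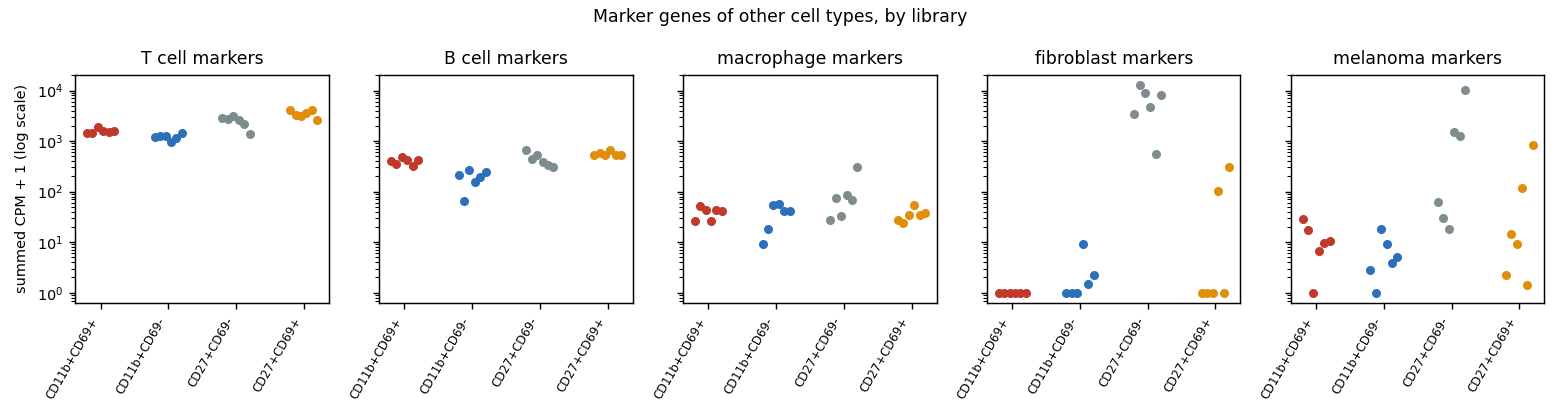
Summed CPM + 1 of marker genes of other cell types (y axis, log scale), 1 point per library, in the 4 sorted populations (x axis). All 6 CD11b+CD69+ libraries sit at the bottom of the fibroblast panel, at 0 CPM, while the CD27+CD69- libraries range from 552 to 12891 CPM.

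CD11b+CD69+ cells were mostly intermediate. Of 10536 genes tested, 1483 (14.1%) differed among the 4 populations at an adjusted p under 0.05 in edgeR's quasi-likelihood F-test. CD11b+CD69+ cells had the highest mean of the 4 for 148 of these genes and the lowest for 201, so that they were at an end for 23.5% and between other populations for 76.5%. The CD11b+CD69- cells were at an end for 76.8% of the same genes, the CD27+CD69- cells for 56.0% and the CD27+CD69+ cells for 43.7%. These counts describe the order of the means and carry no test of their own.

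A further description used the axis between both neighbours. CD27+CD69+ and CD11b+CD69- cells, which differ from CD11b+CD69+ cells in 1 sort marker each, differed from one another in 1159 genes (11%, either direction). The CD11b+CD69+ mean lay between the 2 for 1008 of them, or 87.0%. It lay beyond the CD27+CD69+ mean for 83 and beyond the CD11b+CD69- mean for 68. The median gene stood at 0.538 of the way from CD11b+CD69- to CD27+CD69+ on the log2 scale. On the same axis the CD27+CD69- mean lay between for 812 genes, or 70.1%, with the median gene at 0.794 of the way. Since these genes were chosen for the distance between their ends, a mean between them says little by itself, and these shares were not tested. Over whole libraries, the root mean square log2 difference between a CD11b+CD69+ library and another had a median of 1.27 within the population, 1.34 to CD27+CD69+, 1.37 to CD11b+CD69- and 1.54 to CD27+CD69- libraries.

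**Figure D2:**
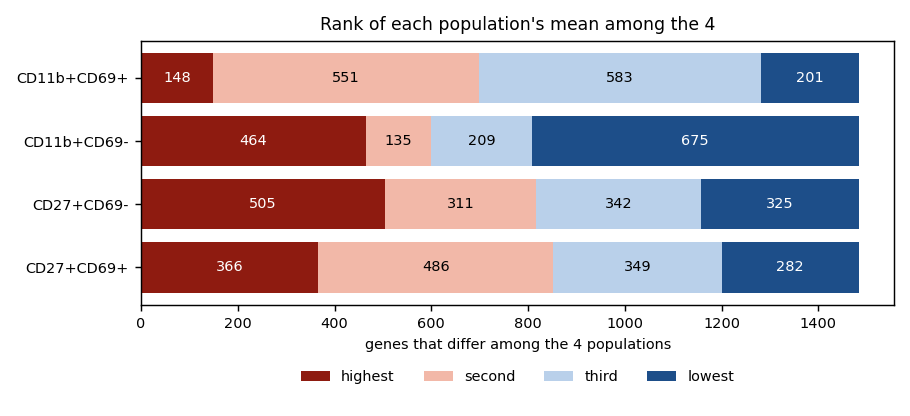
Number of genes (x axis) for which the mean of each population (y axis) was highest, the second, the third or lowest of the 4, over the 1483 genes that differ among them. CD11b+CD69+ cells are mostly the second or the third, 551 and 583 genes, and CD11b+CD69- cells mostly highest or lowest, 464 and 675.

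Against single neighbours, CD11b+CD69+ cells were higher than CD11b+CD69- cells in 173 genes (1.64%) and lower in 116 (1.1%). They were higher than CD27+CD69- cells in 254 (2.41%) and lower in 398 (3.78%), and higher than CD27+CD69+ cells in 96 (0.911%) and lower in 104 (0.987%). Against the mean of the other 3 populations, 94 genes (0.892%) were higher and 41 (0.389%) lower. The population itself had the highest mean for 64 of the 94, while CD11b+CD69- cells were higher still for 24 and CD27+CD69+ cells for 6. It had the lowest mean for 36 of the 41, and CD11b+CD69- cells had it for the other 5. A difference from the average is therefore not always a difference from each neighbour, and the 2 are kept apart in what follows.

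A stricter test asked whether the population was beyond every other population at once. Its p is the largest of the 3 pairwise p-values where all 3 differences have 1 sign, adjusted over all genes tested. With edgeR no gene passed for CD11b+CD69+ cells, 0 higher (0%) and 0 lower (0%), and the smallest adjusted p was 0.189, for Tnfrsf9. At an unadjusted p under 0.05, 35 genes were higher and 71 lower. DESeq2 called 1 higher and 3 lower, and limma-voom 1 higher and 0 lower, and the gene both found higher was Tnfrsf9. By the same edgeR test, 61 genes were higher (0.579%) and 61 lower (0.579%) in CD11b+CD69- cells, 62 higher (0.588%) and 8 lower (0.0759%) in CD27+CD69- cells, and 1 higher (0.00949%) and 1 lower (0.00949%) in CD27+CD69+ cells. A looser rule, called on average with each pairwise unadjusted p under 0.05 and 1 sign, left 20 genes higher (0.19%) and 21 lower (0.199%) in CD11b+CD69+ cells. These genes are the ones nearest to being particular to the population. Of those that met further needs, the 12 of each direction with the smallest such p are described first. The needs were a mean of 10 CPM, 5 of 6 libraries beyond each other median, and no clone name. The mean was that in CD11b+CD69+ cells for higher genes and in each other population for lower ones. In all, 1 higher and 8 lower genes did not meet these needs, among them Ccne1, with the smallest p of the lower genes.

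The counts against the average depended on which libraries entered. Without the CD27+CD69- libraries 46 genes were higher and 17 lower, and with fibroblast and macrophage markers as covariates 9 and 4. Leaving out CD11b+CD69+ replicate 4 gave 62 and 23, and 25 lower without replicate 3 or 5.

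Tnfrsf9 encodes 4-1BB (CD137), a co-stimulatory receptor of the TNF receptor family that appears on activated NK and T cells. Tnfrsf9 ran from 1016 to 1728 CPM in the CD11b+CD69+ libraries, with a median of 1217. The other ranges were 423 to 757 in CD11b+CD69- (median 590.4), 270.5 to 508 in CD27+CD69- (median 333) and 459 to 945 CPM in CD27+CD69+ (median 675). Every CD11b+CD69+ library was above all 18 other libraries. The mean was 1.33 higher than the average of the other 3 on the log2 scale (SE 0.14, adjusted p = 2.56e-06, edgeR). The difference was 1.22 from CD11b+CD69-, 1.82 from CD27+CD69- and 0.96 from CD27+CD69+ cells, with adjusted p of 0.0002, 9.31e-07 and 0.00287 in the 3 edgeR comparisons. Of the 63 genes named here that were called on average, it was the only one called under all 16 alternatives run, the covariate fit included, where its adjusted p was 0.0205. The gene (ENSMUSG00000028965) lies on the plus strand of chromosome 4, from 150914562 to 150946102 in GRCm38, and no other annotated exon overlaps it.

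Tnfrsf9 is known as a gene that NF-kB and STAT factors can act on, so the 250 bases before the annotated transcription starts of the genes called at an end were searched on both strands for kappaB (GGG, any 2 bases, TTTCC), GAS (TTCNNNGAA) and ISRE (GAAA, any 2 bases, GAAA) letters. RefSeq promoters of GRCm38.p6 were found for 15 of the 20 higher and 14 of the 21 lower genes. Among the 15, kappaB letters stood in 1, Tnfrsf9, GAS letters in 3, Tnfrsf9, Plscr1 and Icam1, and ISRE letters in 1, Pld3. Among the 14, the counts were 0, 1 and 1. Of the 8035 genes tested that had a promoter, 1.87% held kappaB, 7.24% GAS and 3.42% ISRE letters. The 3 promoters with GAS letters are shown because Tnfrsf9 is the gene nearest to being particular to these cells and the other 2 share a motif with it. Capitals mark the matches, which in Tnfrsf9 are first GAS and then kappaB letters. The promoter of the upstream annotated start of Tnfrsf9 held none of the 3 motifs. A match is a description of the sequence, not a binding site.
Tnfrsf9, at its downstream annotated start, chr4:150927749-150927998, plus strand: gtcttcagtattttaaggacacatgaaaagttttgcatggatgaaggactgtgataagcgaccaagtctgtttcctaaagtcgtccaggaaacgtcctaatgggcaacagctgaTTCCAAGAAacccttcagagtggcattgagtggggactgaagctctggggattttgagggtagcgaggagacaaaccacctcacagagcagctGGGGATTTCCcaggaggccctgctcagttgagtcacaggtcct
Plscr1, chr9:92249944-92250193, plus strand: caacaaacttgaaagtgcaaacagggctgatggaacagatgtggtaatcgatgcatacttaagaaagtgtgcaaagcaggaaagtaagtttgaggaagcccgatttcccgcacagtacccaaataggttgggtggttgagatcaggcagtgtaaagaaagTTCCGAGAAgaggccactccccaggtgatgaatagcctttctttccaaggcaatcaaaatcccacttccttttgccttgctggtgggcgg
Icam1, chr9:21015690-21015939, plus strand: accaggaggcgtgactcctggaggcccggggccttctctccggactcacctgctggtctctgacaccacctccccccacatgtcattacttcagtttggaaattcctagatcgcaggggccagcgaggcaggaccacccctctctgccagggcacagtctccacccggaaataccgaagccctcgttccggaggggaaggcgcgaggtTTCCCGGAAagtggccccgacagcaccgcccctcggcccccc

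Rgs1, a brake on signalling from chemokine receptors that is a common mark of tissue-resident lymphocytes, was also highest in CD11b+CD69+ cells. Rgs1 ran from 1792 to 4222 CPM in the CD11b+CD69+ libraries, with a median of 2889.8. The other ranges were 1657 to 2459.5 in CD11b+CD69- (median 2013), 1094 to 1786 in CD27+CD69- (median 1318) and 2069 to 2756 CPM in CD27+CD69+ (median 2406). All 6 CD11b+CD69+ libraries were above all CD27+CD69- libraries and 5 were above every other median, while the lowest lay within the CD11b+CD69- range and under the CD27+CD69+ range. The mean was 0.67 above the average (SE 0.12, adjusted p = 0.00211, edgeR), but only 0.34 above CD27+CD69+ cells, with an unadjusted p of 0.0297. Without the CD27+CD69- libraries its adjusted p was 0.0916.

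Csf2 encodes GM-CSF, a cytokine that acts on myeloid cells. Its CD11b+CD69+ values were 118, 68.7, 6.84, 3.36, 0 and 82.4 CPM in replicates 1 to 6. The CD11b+CD69- libraries held at most 1.53 CPM, the CD27+CD69- libraries at most 3.19, and the CD27+CD69+ libraries ran from 0.467 to 14.3 CPM. Replicates 1, 2 and 6 were thus above every other library of the study, and the other 3 held less than the highest CD27+CD69+ library. The difference from the average was 4.85 (SE 0.75, adjusted p = 0.000585, edgeR), and limma-voom did not call it, with an adjusted p of 0.157. With 8 counts in all CD11b+CD69- and 14 in all CD27+CD69- libraries, the size of this difference is poorly set. A predicted gene lies antisense to Csf2, and the kit keeps no strand.

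Pld3, an exonuclease of the endolysosome that degrades single-stranded nucleic acid, separated the groups as fully as Tnfrsf9 did. Pld3 ran from 854 to 1039 CPM in the CD11b+CD69+ libraries, with a median of 961. The other ranges were 529 to 794 in CD11b+CD69- (median 702), 404 to 764 in CD27+CD69- (median 563) and 655 to 815 CPM in CD27+CD69+ (median 759). All 6 CD11b+CD69+ libraries were above all 18 others. The difference from the average was 0.52 (SE 0.09, adjusted p = 0.00234, edgeR). Over all genes tested, only 4 (0.038%) had every CD11b+CD69+ library above every other library, and 0 (0%) had every one below. The other 2 were B9d2, a part of the base of the primary cilium, and Lcp1, which encodes the actin-bundling protein L-plastin. B9d2 ran from 88.6 to 128 CPM against at most 87.6 elsewhere, and Lcp1 from 2665 to 3057 CPM against at most 2544 elsewhere.

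Plscr1, a phospholipid scramblase that interferon induces, ran from 153 to 325 CPM in CD11b+CD69+ cells (median 269), against medians of 152, 127 and 169.5 in CD11b+CD69-, CD27+CD69- and CD27+CD69+ cells. It was 0.73 above the average (SE 0.14, adjusted p = 0.00591, edgeR), with 5 of 6 libraries above each other median. Fcrl6, an Fc receptor-like molecule of cytotoxic lymphocytes, ran from 48.2 to 175 CPM, against 4.43 to 42.4 in CD11b+CD69-, 11.5 to 56 in CD27+CD69- and 20.3 to 93.5 in CD27+CD69+ cells. It did not overlap the CD11b+CD69- libraries and stood 1.69 above the average (SE 0.34, adjusted p = 0.00866, edgeR). The membrane proteins of the tetraspanin family Tspan13 and Cd82 were 0.57 and 0.54 above the average. Tspan13 overlapped CD27+CD69+ libraries alone, with 440.4 to 593 against 396 to 496 CPM. Cd82 ran from 395 to 687 CPM and overlapped both CD27+ populations, at 353 to 493 in CD27+CD69+ and 217 to 590 in CD27+CD69-. Sec11c, a catalytic subunit of the signal peptidase that trims secreted proteins, had a mean of 540.4 ± 53.7 CPM (SD, n = 6) against 457 ± 46.4 in the nearest population, CD27+CD69+. Osgin1, a gene of the oxidative stress response, had a mean of 100.3 ± 53.3 against 39.3 ± 24.4 CPM in the nearest, CD27+CD69-, and Rrp1b, a nucleolar protein of ribosome assembly, 77.8 ± 27.9 against 48.9 ± 13.2 CPM in CD11b+CD69- (SD, n = 6 each). Of these 12 genes, 8 were called with each CD11b+CD69+ library left out in turn, and Cd82, Fcrl6, Osgin1 and Rrp1b were not. Without the CD27+CD69- libraries 8 of the 12 were called, and Plscr1, Sec11c, Rrp1b and Rgs1 were not, at an adjusted p of 0.0612, 0.0887, 0.272 and 0.0916. With the marker covariates 2 were called, Csf2 and Tnfrsf9. Fcrl6 lost its call without replicate 4 (adjusted p = 0.0743), and Cd82, Osgin1 and Rrp1b without 4 or 5 of the replicates each, with adjusted p of up to 0.11, 0.172 and 0.134.

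Further down the same ranking stood genes of adhesion, granule proteases and receptor signalling. Icam1, the adhesion ligand of the integrin LFA, ran from 255 to 458 CPM (median 327) against medians of 223, 154 and 184 in CD11b+CD69-, CD27+CD69- and CD27+CD69+ cells, and did not overlap the last. Cst7, the gene of cystatin F, which restrains the proteases that process granzymes, had medians of 894, 608, 358 and 671 CPM in the same order from CD11b+CD69+ on, and did not overlap either CD69- population. Sh2d1b1, an adaptor of SLAM family receptors in NK cells, had medians of 169, 90.6, 66 and 108 CPM. All 6 libraries were above each other median for these 3 genes. Against the average they differed by 0.83, 0.76 and 0.85 on the log2 scale, with adjusted p of 0.0154, 0.000756 and 0.0114 in edgeR. From the nearest population the differences were 0.53 for Icam1 (CD11b+CD69-), and 0.33 and 0.49 for Cst7 and Sh2d1b1 (CD27+CD69+). Those did not pass the test (adjusted p = 0.296, 0.39 and 0.401, edgeR).

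**Figure D3:**
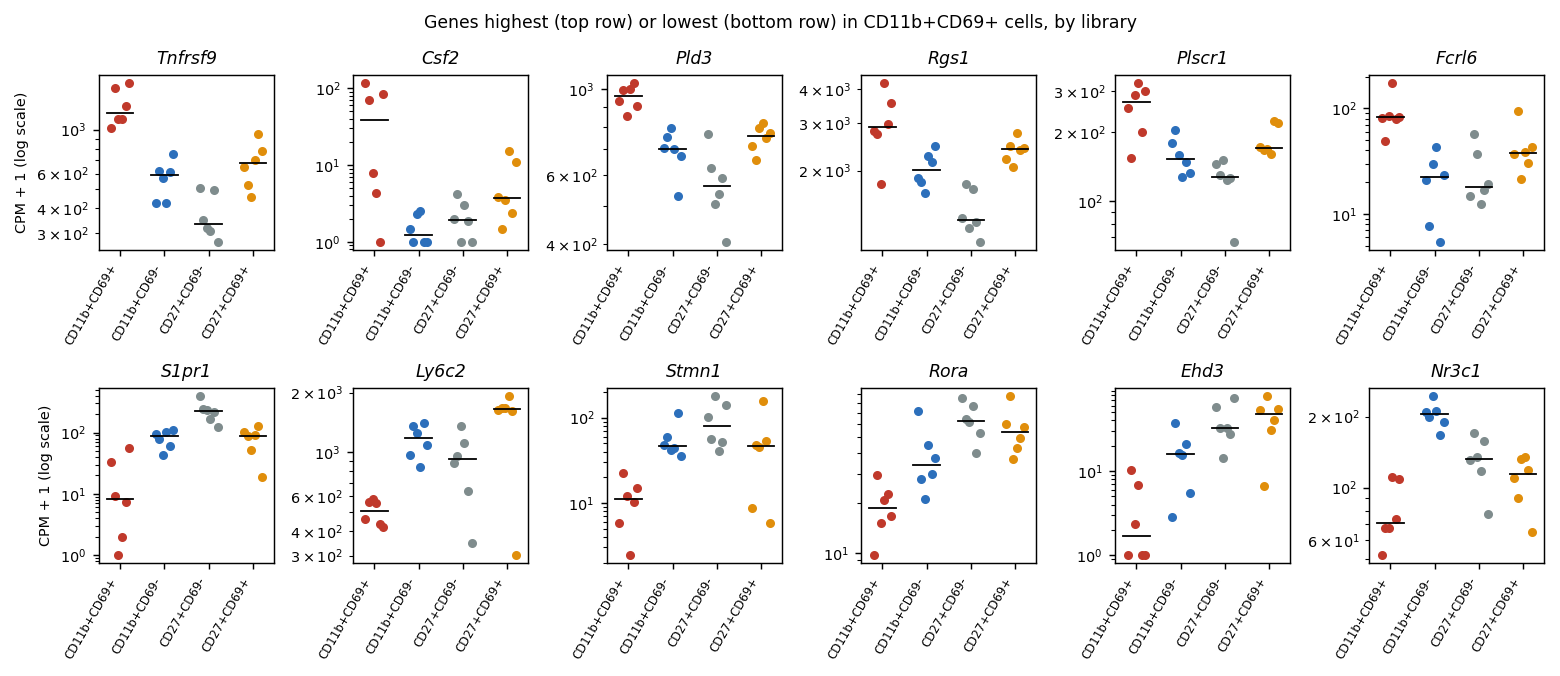
CPM + 1 (y axis, log scale) of 12 genes in each library, by population (x axis); horizontal lines are medians. In the top row all 6 CD11b+CD69+ libraries of Tnfrsf9 and Pld3 lie above every other library, and in the bottom row those of S1pr1, Stmn1 and Rora lie below the median of each other population.

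S1pr1 was among the genes lowest in CD11b+CD69+ cells. It encodes the receptor for sphingosine-1-phosphate by which lymphocytes leave tissue, the receptor that CD69 takes off the surface. S1pr1 ran from 0 to 55.1 CPM in the CD11b+CD69+ libraries, with a median of 7.28. The other ranges were 41.8 to 111 in CD11b+CD69- (median 86.8), 123 to 399 in CD27+CD69- (median 224) and 17.8 to 126 CPM in CD27+CD69+ (median 88.8). All 6 CD11b+CD69+ libraries were below each other median, with replicates 1 and 6 the highest of them at 31.7 and 55.1 CPM. The difference from the average was -2.72 (SE 0.58, adjusted p = 0.0162, edgeR), and -2.22, -3.73 and -2.19 from CD11b+CD69-, CD27+CD69- and CD27+CD69+ cells. CD27+CD69+ cells thus held about as much as CD11b+CD69- cells, with medians of 88.8 and 86.8 CPM. Without replicate 2 or 5 the adjusted p was 0.0553 and 0.0585, and without the CD27+CD69- libraries 0.126. The gene (ENSMUSG00000045092) lies on the minus strand of chromosome 3, from 115710433 to 115715072 in GRCm38.

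Ly6c2 encodes Ly6C, a surface antigen that mature NK cells usually carry. Ly6c2 ran from 417 to 581 CPM in the CD11b+CD69+ libraries, with a median of 505. The other ranges were 838 to 1399 in CD11b+CD69- (median 1172), 346 to 1355 in CD27+CD69- (median 923) and 301 to 1926 CPM in CD27+CD69+ (median 1655). The CD11b+CD69+ libraries lay below all CD11b+CD69- libraries, while single libraries of both CD27+ populations were lower still. The difference from the average was -1.20 (SE 0.26, adjusted p = 0.0175, edgeR), and limma-voom gave an adjusted p of 0.12. The adjusted p without 1 CD11b+CD69+ library was 0.0614, 0.0528, 0.0656 and 0.0696 for replicates 1, 4, 5 and 6. Reads of Ly6 family members can be shared with near copies.

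Rora, a nuclear receptor of innate lymphoid development, ran from 8.68 to 28.3 CPM (median 17.7) against medians of 32.8, 61.7 and 52.4 in CD11b+CD69-, CD27+CD69- and CD27+CD69+ cells. It was clear of both CD27+ populations and stood -1.49 from the average (SE 0.27, adjusted p = 0.00312, edgeR). Nr3c1, the glucocorticoid receptor, ran from 50.8 to 109 CPM (median 69.7) against medians of 203, 132 and 113 in the same order. It was clear of the CD11b+CD69- libraries and stood -0.84 from the average (SE 0.17, adjusted p = 0.00873, edgeR), with an unadjusted p of 0.0378 against CD27+CD69+ cells. Tcf12, an E protein that pairs with other helix-loop-helix factors, had a median of 50.2 CPM against 71.1, 126 and 86.6. In the list of NK transcription factors, 3 of 28 genes tested were higher than the average, Id2, Irf8 and Bhlhe40. Ikzf2 was lower (1 gene), and the list median was 0.15. Over all genes tested 0.892% were higher and 0.389% lower. None of the list met the looser rule. From CD11b+CD69- cells Irf8 differed by -0.70 (adjusted p = 0.00928, edgeR), and Id2 and Bhlhe40 by -0.04 and -0.07. Ikzf2 was 1.31 higher than in CD11b+CD69- cells. Rora and Nr3c1 were called with each CD11b+CD69+ library left out in turn, and Tcf12 was not called without replicate 2, 3 or 4, at an adjusted p of 0.0639, 0.0708 and 0.0528.

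Stmn1, a microtubule-destabilising protein abundant in dividing cells, ran from 1.44 to 21.6 CPM (median 10) against 34.9 to 113 in CD11b+CD69- (median 44.9), 39.9 to 179 in CD27+CD69- (median 77.8) and 4.82 to 154 in CD27+CD69+ cells (median 45.7). All 6 libraries were below both CD69- populations, and 2 CD27+CD69+ libraries were as low. The difference from the average was -2.65 (SE 0.57, adjusted p = 0.0119, edgeR), and limma-voom did not call it, with an adjusted p of 0.195. Anapc5, a subunit of the complex that drives exit from mitosis, had a median of 159 CPM against 229, 244 and 259, a smaller difference of -0.63 (adjusted p = 0.00509, edgeR). Ccne1, which encodes cyclin E and starts DNA replication, had 0 counts in the 6 CD11b+CD69+ libraries, which allows up to 3 counts, against 73, 115 and 129 counts over 6 libraries in the other populations. Rad54l, a recombination repair gene, had 1 count against 64, 111 and 46. Both genes belong to the 21 lower by the looser rule, and fitted sizes of change mean little at such counts.

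The remaining lowest genes have varied roles. Ehd3, an ATPase of endocytic recycling, had counts in 3 of 6 CD11b+CD69+ libraries and at most 9.42 CPM, against medians of 15, 31.5 and 46.2. Ero1lb, an oxidase that forms disulfide bonds in the endoplasmic reticulum, had a median of 8.96 CPM against 33.2, 15.9 and 24.7, with CD27+CD69- the nearest. Xpnpep1, an aminopeptidase, had a median of 45.3 against 89.7, 118 and 75.8 CPM. Acp5, the tartrate-resistant acid phosphatase, and Crip1, a LIM domain protein, had medians of 31.3 and 370.3 CPM in CD11b+CD69+ cells, and their nearest medians elsewhere were 69.4 in CD11b+CD69- and 459.6 in CD27+CD69+ cells. For each of these 5 genes all 6 CD11b+CD69+ libraries were below each other median. Il6st, the shared signalling chain of the IL-6 receptor family, had 9 counts over the 6 CD11b+CD69+ libraries, against 47, 444 and 154 in CD11b+CD69-, CD27+CD69- and CD27+CD69+ cells. Ehd3 lost its call without replicate 3 (adjusted p = 0.0588), Crip1 without replicate 1, 3 or 6 (up to 0.0946), Acp5 without any of replicates 1 to 5 (up to 0.0722) and Il6st without replicate 1, 2, 4, 5 or 6 (up to 0.11). Of the 12 lowest genes, 6 kept their call with each library left out in turn, 6 without the CD27+CD69- libraries and 0 with the marker covariates.

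**Figure D4:**
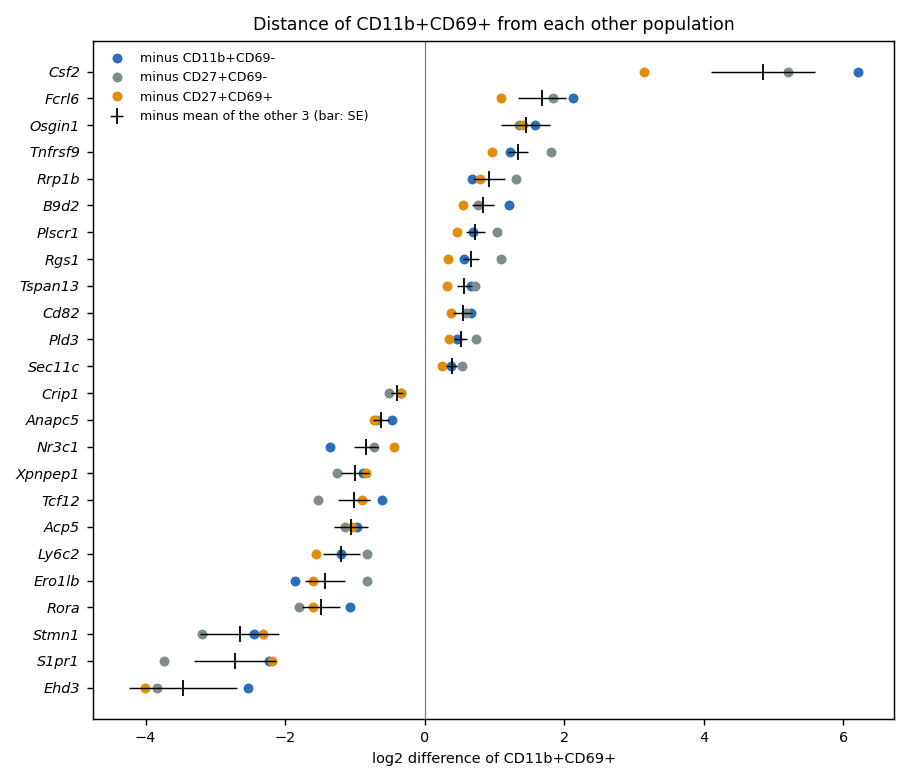
Log2 difference of CD11b+CD69+ cells (x axis) from each other population (coloured points) and from their mean (black mark, bar: SE) for the 12 highest and 12 lowest genes (y axis). For 10 of the 12 highest genes the nearest population is CD27+CD69+, as for Rgs1 with a difference of 0.34.

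Gene lists were described by counts and medians, beside those over all genes tested, of which 0.892% were higher and 0.389% lower than the average, with a median log2 difference of -0.01, 19.2% with CD11b+CD69+ the highest mean and 21.4% with it the lowest. A list's own median was not tested. In the egress and recirculation list, 1 of 12 genes passed the test, S1pr1, lower, and none was higher. Besides S1pr1, CD11b+CD69+ cells had the lowest mean of the 4 for S1pr4, Cxcr4 and Itgb7, among others, which did not pass the test. The list median was -0.36, at -0.67 against CD11b+CD69-, -0.36 against CD27+CD69- and 0.10 against CD27+CD69+ cells. Against CD27+CD69+ cells alone this list was thus not lower at its median. In the list of type 1 innate lymphoid cell and residency genes, 3 of 17 were higher, Rgs1, Xcl1 and Entpd1, and 1 was lower, Ikzf2. Rgs1 alone of the 4 met the looser rule. Xcl1 differed from CD27+CD69+ cells by 0.13, with an unadjusted p of 0.592, and Entpd1 was higher in CD11b+CD69- cells, with medians of 210.3 against 105 CPM. Itgam was higher than the average, but lost its call without any 1 of the 6 replicates, at an adjusted p of 0.062 to 0.139. Ikzf2 lost its call without replicate 3 or 5, at an adjusted p of 0.0551 and 0.0518.

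In the cell cycle list 1 of 20 genes tested passed, Stmn1, lower. CD11b+CD69+ cells had the lowest mean of the 4 for 7, Mki67, Top2a, Birc5, Aurkb, Mcm2, Mcm6 and Stmn1, and the highest for 0. The list median was -0.30, at 0.07 against CD11b+CD69-, -0.78 against CD27+CD69- and -0.40 against CD27+CD69+ cells. Against CD11b+CD69- cells alone the list was thus not lower at its median.

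In the NF-kB list, 4 of 17 genes tested were higher and 0 lower. The list holds subunits, inhibitors and common targets of this factor, which TNF family receptors such as 4-1BB activate. Relb, Traf1, Cd83 and Icam1 passed, and CD11b+CD69+ cells had the highest mean of the 4 for 9, among them Nfkb2, Relb, Bcl3 and Nfkbie. The list median was 0.34. Relb, a subunit, ran from 111 to 203 CPM (median 147) against medians of 80.5, 76.8 and 97.5 in CD11b+CD69-, CD27+CD69- and CD27+CD69+ cells. All 6 libraries were above each other median, and the difference from the average was 0.89 (SE 0.20, adjusted p = 0.0162, edgeR). From CD27+CD69+ cells Relb differed by 0.50, with an unadjusted p of 0.0584 in edgeR, so it did not meet the looser rule. The call of Relb was lost without replicate 1 or 5, at an adjusted p of 0.0745 and 0.0518, and that of Icam1 without replicate 2, at 0.0754. Without the CD27+CD69- libraries Relb and Traf1 were not called, at an adjusted p of 0.0875 and 0.0756 in edgeR. Traf1, a signal adaptor bound by TNF receptors, had a median of 495 CPM, next to 461 in CD27+CD69+ cells, and was not called without replicate 1, 2, 4, 5 or 6, at an adjusted p of up to 0.11. Cd83, a surface molecule of activated cells, ran from 0 to 314 CPM (median 104), so that 1 library held none while another was the highest of the study. Its medians elsewhere were 0.706, 21.8 and 57.3, and limma-voom did not call it, with an adjusted p of 0.675. Within the TNF and TNF receptor list, 1 of 16 genes passed the test, Tnfrsf9, and CD11b+CD69+ cells had the highest mean for 5, which included Tnfrsf4, Tnfsf4, Tnfsf14 and Fas.

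Genes of IL-2 and IL-15 reception bear on the study's title. Of 16 genes for receptor chains, JAK kinases, STAT5 and their regulators, 1 was higher, Il2rg, and 0 lower, and CD11b+CD69+ cells had the highest mean for 8, with a list median of 0.25. Il2rg, the common gamma chain, ran from 881 to 1120.3 CPM (median 959) against medians of 843, 644 and 858. All 6 libraries were above each other median, and the difference was 0.36 from the average (SE 0.09, adjusted p = 0.0361, edgeR), and 0.21 and 0.18 from CD11b+CD69- and CD27+CD69+ cells, with unadjusted p of 0.0756 and 0.115. The call was lost without replicate 1, 3, 4, 5 or 6, at an adjusted p between 0.056 and 0.149, and without the CD27+CD69- libraries at 0.222. Il2ra, the chain that gives high affinity for IL-2, ran from 7.08 to 54.2 CPM (median 12.2) in CD11b+CD69+ and from 14.2 to 39.7 (median 22.3) in CD27+CD69+ cells. It was at 0 in 5 of 6 CD11b+CD69- libraries and at most 8.87 CPM in CD27+CD69-, so it followed CD69 and not this population alone. Its difference from the average was 2.22 (SE 0.71, adjusted p = 0.15, edgeR), and limma-voom and the thinned counts did call it, at 0.0103 and 0.0204. Il2rb and Il15ra differed from the average by 0.32 and 0.06, with adjusted p of 0.446 and 0.997 in edgeR. Flt3l, which encodes the FLT3 ligand that dendritic cells need, ran from 25.7 to 60.4 CPM (median 40.4), with medians of 52.8, 41.2 and 61.7 in CD11b+CD69-, CD27+CD69- and CD27+CD69+ cells. The mean was the lowest of the 4, the libraries overlapped in all populations, and the difference of -0.27 (SE 0.25) did not pass the test, with an adjusted p of 0.869 in edgeR. Of 24 genes that STAT5 is known to induce, 4 were higher, Tnfrsf9, Xcl1, Gzmb and Id2, 0 were lower and the list median was 0.11. That median was -0.04 against CD11b+CD69-, 0.36 against CD27+CD69- and 0.22 against CD27+CD69+ cells. Against CD11b+CD69- cells alone the list was thus not higher at its median. Tnfrsf9 alone of the 4 met the looser rule. Gzmb and Id2 had higher means in CD11b+CD69- cells, and Xcl1 was only 0.13 above CD27+CD69+ cells.

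The cytotoxic granule list had 5 of 19 genes higher, which included Gzma, Gzmb and Prf1. The list of secreted factors had 7 of 17, which included Ccl3 and Ccl4. Gzma, Ccl3 and Ccl4 were higher still in CD11b+CD69- cells, with means of 12464, 1606 and 2863 against 9791, 759 and 1831 CPM. These differences from CD11b+CD69- cells did not pass the test (adjusted p = 0.074, 0.063 and 0.379, edgeR). Granzyme B (Gzmb) had medians of 7682 CPM in CD11b+CD69+ and 9965 in CD11b+CD69- cells, against 1150.1 and 1269 CPM in the CD27+CD69- and CD27+CD69+ cells. For perforin (Prf1) the medians were 2190.1, 3823, 629 and 626 CPM in that order. From CD11b+CD69- cells Prf1 differed by -0.77 on the log2 scale (adjusted p = 0.016, edgeR). The difference of -0.31 for Gzmb did not pass the test (adjusted p = 0.704, edgeR), and the libraries overlapped. In the mature NK cell list, CD11b+CD69+ cells had the highest mean for 0 of 18 genes, and the list median was -1.16 against CD11b+CD69- and 1.41 against CD27+CD69+ cells.

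Of 38 type I interferon response genes tested, 7 were higher than the average and 0 lower. The list median was 1.71 against CD11b+CD69-, 0.29 against CD27+CD69- and 0.00 against CD27+CD69+ cells. Ifi44 ran from 29.4 to 149 CPM in CD11b+CD69+ and from 23.8 to 91.9 in CD27+CD69+ cells, and had 0 counts in all 6 CD11b+CD69- libraries. Usp18, which dampens interferon receptor signalling, had medians of 194 and 176 CPM in the CD69+ populations, against 26.8 in CD11b+CD69- and 72.4 in CD27+CD69- cells. Xcl1, the chemokine for cross-presenting dendritic cells, had medians of 736 and 703 CPM against 143 and 339.6. Neither gene differed between the CD69+ populations by more than 0.13 on the log2 scale. Class I genes H2-T23, H2-Q7 and H2-K1 were higher than the average by 0.45, 0.42 and 0.29 (adjusted p = 0.00104, 0.0105 and 0.0453, edgeR), and within 0.08 of CD27+CD69+ cells. H2-K1 lost its call without any 1 of the 6 replicates, at an adjusted p of 0.0584 to 0.155, and Usp18 without replicate 4, at 0.0542. Reads of class I genes can be shared between near-identical members.

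The list of inhibitory and checkpoint receptors held 5 of 15 genes higher and 0 lower. The 5 included Klra4, Entpd1, Lilrb4a and Lilr4b, and not all of these encode inhibitory receptors. Entpd1 was higher still in CD11b+CD69- cells, with a mean of 214 against 118 CPM. Lilrb4a and Lilr4b, which belong to the gp49 pair of inhibitory and activating receptors and can share reads, had medians of 103 and 407 CPM, next to 70.3 and 330.5 in CD27+CD69+ cells. Ribosomal protein (24 genes), oxidative phosphorylation (21), glycolysis (22), ATF4 target (15), BCL2 family (10), interferon-inducible GTPase (15) and immediate early genes (24) held no gene that passed the test in either direction. The 13 heat shock genes held none either. All 13 differences from the average were above 0, against 5196 of the 10536 genes tested, and CD11b+CD69+ cells were the highest of the 4 for 7. The heat shock median was 0.25, at 0.31 against CD11b+CD69-, 0.10 against CD27+CD69- and 0.29 against CD27+CD69+ cells. For the 24 immediate early genes CD11b+CD69+ cells had the highest mean for 0 and the lowest for 5, which included Fos, Junb and Nr4a2. The share of lowest means was 20.8%, near the 21.4% over all genes tested. The immediate early median was -0.06, at -0.36 against CD11b+CD69-, -0.09 against CD27+CD69- and 0.31 against CD27+CD69+ cells.

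**Figure D5:**
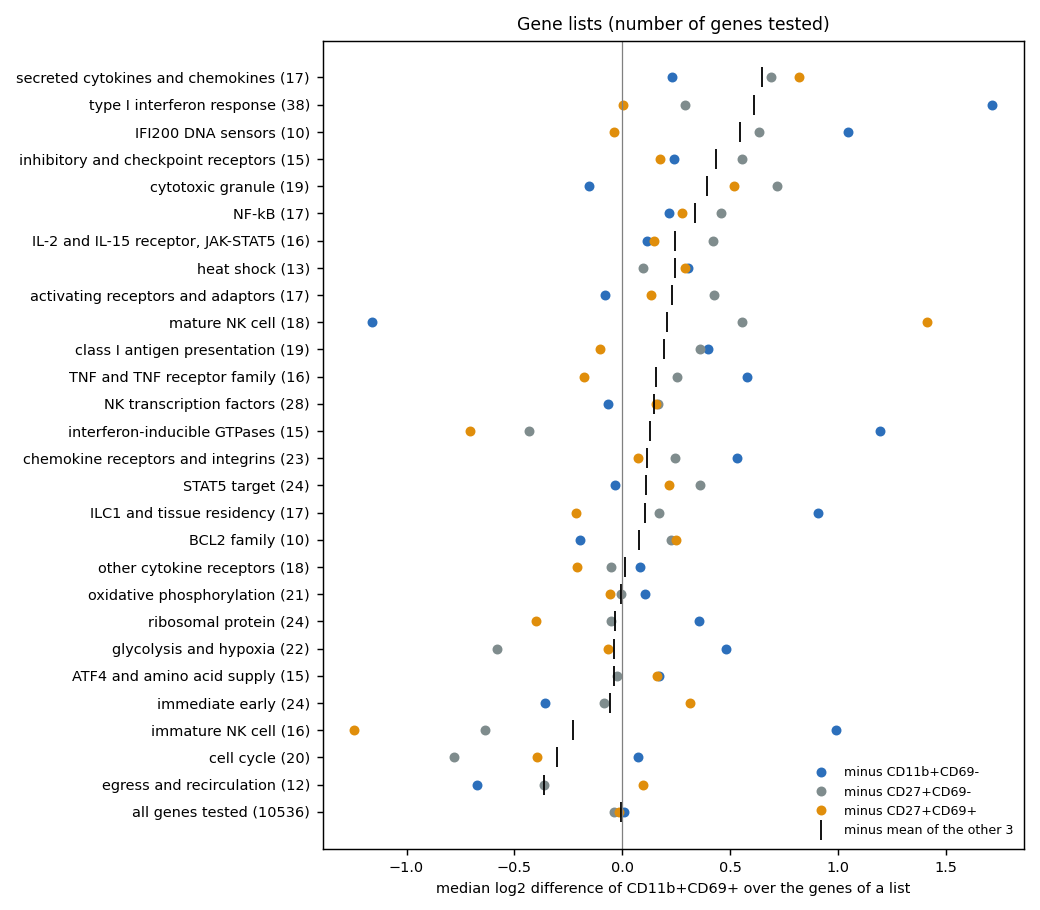
Median log2 difference of CD11b+CD69+ cells over the genes of each list (x axis; lists with their number of genes tested on the y axis) from each other population (coloured points) and from the mean of the 3 (black marks). Genes with a population at 0 counts enter at a bound of 3 counts. Mature NK cell genes lie at -1.16 against CD11b+CD69- and 1.41 against CD27+CD69+ cells.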

How the data were processed

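RNA was measured in 24 libraries of 100 sorted cells, copied with SMART-Seq v4 and built with Nextera XT, per the labels' protocols; this chemistry keeps no strand and adds no molecular identifiers, so floors cover counting error only. The deposited values are raw read counts, given by Ensembl identifier for each library and not normalized by the authors. GRCm38, HTSeq and Picard are named in the submitters' processing notes. For the aligner, annotation release and strand setting, nothing is given in the sources used here. In all, the table held 53471 entries, 53465 identifiers after repeats. The 3433 genes with no symbol held 0.174% of counts and stayed in the tests. Total counts ran from 1213914 to 2671533. Positions, overlaps and promoters came from GENCODE M21 and RefSeq; of 83 genes looked up, 22 share exon sequence with another gene.

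With edgeR 4.0.16 (R 4.3.3), a quasi-likelihood model was fitted to 4 group means over all 24 libraries, after filterByExpr with a minimum count of 10 (10536 genes left), with TMM factors of 0.958 to 1.06 and robust dispersions. Benjamini-Hochberg adjustment covered all genes tested, with a threshold of 0.05. The population, the gene lists, the tests and the alternatives were chosen with earlier results of these data known. The named genes were 10 fixed ones (Itgam, Cd69, Cd27, Flt3l, Ncr1, Klrb1c, Il2ra, Il2rb, Il2rg, Il15ra), the 12 highest and 12 lowest by the looser rule with a mean of 10 CPM (in CD11b+CD69+ cells for higher genes, in each other population for lower ones) and 5 of 6 libraries beyond each other median, and up to 4 called members of a list with the smallest p, without clone-named genes. Since no gene passed the strict test, the looser rule filled these places. Other genes were named after their values were seen: Lcp1, Cst7, Sh2d1b1, Icam1, Ccne1 and Rad54l from the looser rule's 41, and genes named by rank in a list. Alternatives were DESeq2 1.42.0 and its size factors, voom of limma 3.58.1, other filters, thinned counts, a replicate block, marker covariates, 2 groups only, and libraries left out. Some genes of these lists are not reported here. The scripts were tested on simulated counts.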

Additional observations from a re-analysis of the deposited data

Results flagged for a closer look

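For the 12 highest, the 12 lowest and the 10 fixed genes, 136 groups of 6 libraries were examined for 1 library whose gap to the rest passed Dixon's critical value, and 10 groups stood out, where chance gives about 1 in 20. Within CD11b+CD69+ cells these were Fcrl6, with 1 library at 174.797 CPM, Acp5, with 1 at 60.4824 CPM, both above the rest, and Tspan13, with 1 at 440.362 CPM, below the rest. In CD27+CD69+ cells, 1 library stood high for Fcrl6 at 93.4639 CPM and for Stmn1 at 154.252 CPM, and 1 stood low for Ly6c2 at 300.961 CPM. In CD11b+CD69- cells, 1 library stood high for Il2ra at 10.6752 CPM, the other 5 being at 0, and for Stmn1 at 112.642 CPM. In CD27+CD69- cells, 1 library stood low for Cd69 at 380.184 CPM and for Plscr1 at 65.9756 CPM.

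The CD69 difference within CD11b+ cells, minus that within CD27+ cells, was tested as an interaction in the same edgeR fit, where 61 genes were called over all genes tested. Of the 12 highest, 12 lowest and 10 fixed genes it was called for Ly6c2, at -1.95 (SE 0.43, adjusted p = 0.0333), and for Ero1lb, at -2.63 (SE 0.46, adjusted p = 0.00452). Both were lower in CD11b+CD69+ than in CD11b+CD69- cells, with medians of 505 against 1172 CPM for Ly6c2 and 8.96 against 33.2 CPM for Ero1lb. In CD27+ cells the CD69+ median was the higher, 1655 against 923 CPM for Ly6c2 and 24.7 against 15.9 CPM for Ero1lb.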

How the results depend on the processing

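Counts of genes beyond the average of the other populations were 94 higher and 41 lower, 20 and 21 by the looser rule, and 0 and 0 beyond every other population. DESeq2 gave 154 lower on average, 52 lower by the looser rule, and 1 higher (Tnfrsf9) and 3 lower (Ccne1, Sparc, Vgll3) beyond every other population. Limma-voom gave 147 higher on average, 48 higher and 10 lower by the looser rule and 1 higher (Tnfrsf9) beyond every population. With no filter the looser rule gave 40 higher, and the median log2 difference over all genes moved from -0.01 to -0.16, so values there are read against that shift. Without the CD27+CD69- libraries the counts were 46 and 17 on average and 10 lower by the looser rule. With the fibroblast and macrophage covariates they were 9 and 4 on average and 3 and 2 by the looser rule; fibroblast markers had medians of 0 to 0.246 CPM outside CD27+CD69- cells and 6372 CPM in them, while macrophage markers had medians of 33.8 to 40.9 and 70.7 CPM. As 2 groups only, where the spread between the other 3 populations counts as error, they were 1 and 0. Without 1 CD11b+CD69+ library, genes on average were 62 to 77 higher and 23 to 29 lower, and by the looser rule 10 to 19 higher (10 without replicate 4, 12 without 1 and 13 without 6) and 13 to 18 lower (13 without replicate 3, 4 or 5). The replicate block gave 97 and 40 on average, 25 and 19 by the looser rule and 0 and 0 beyond every population. There Il2rg, Osgin1, Rrp1b, Acp5 and Trbc2 lost their call (adjusted p = 0.0633 to 0.0825, edgeR). Same-numbered libraries deviated with correlations of -0.029 to 0.207, with 1 of 36 pairs over 0.1. Of the 24 libraries, 4 correlated best with their own number. What the numbers mark is not stated, so they were not used as pairs in the main fit. Whether same-numbered libraries come from 1 animal was not tested, and these correlations cannot settle it. Of 1119 comparisons of a named gene with an alternative, 862 kept direction and side of the threshold, 251 lost the call, 4 gained it and 2 changed sign, both for Il15ra, at -0.0194 as 2 groups only and -0.137 without CD11b+CD69+ replicate 3 (-0.137 to 0.227 over the 6 replicates left out), against a main value of 0.06 that did not pass the test. Depth limits genes under about 2.47 CPM, the level of 3 counts in the shallowest library.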
